A study of Homo sapiens with 8 samples.

Results

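The enzymes described here are the core hydrogen peroxide and superoxide scavengers of human cells: the peroxiredoxins PRDX1, PRDX2, PRDX3, PRDX5 and PRDX6, the glutathione peroxidases GPX1 and GPX4, the superoxide dismutases SOD1 and SOD2, and catalase (CAT). The 10 genes were chosen by name, and all 10 were found among the 58735 gene IDs of the transcript tables and passed the filter on low counts that left 18242 genes for testing. They were measured in BEAS-2B cells, an established human bronchial epithelial cell line, held at an air–liquid interface and exposed to clean air or to 1 ppm formaldehyde for 2 h and then left to recover for 6 h. RNA depleted of ribosomal RNA was sequenced either directly (input) or after pull-down with an antibody against 8-oxo-7,8-dihydroguanosine (8-oxoG), the main oxidation product of guanine in RNA. The 4 groups were CA_IN (clean air, input), FA_IN (formaldehyde, input), CA_IP (clean air, pull-down) and FA_IP (formaldehyde, pull-down), with 2 libraries each. According to the study's methods, the libraries of a group came from separate cultures, and each RNA pool was split into an input and a pull-down fraction. Every group shares the cell line and the collagen-coated inserts. Clean air and formaldehyde cultures were held in separate chambers, so that chamber and treatment cannot be told apart. The study also reports methanol, ethanol and acetaldehyde that rose with the formaldehyde, attributed to impurities of the paraformaldehyde. Their part cannot be told apart from that of formaldehyde either. No pull-down with an unrelated antibody was analysed here.

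Superoxide dismutases convert superoxide into hydrogen peroxide. Catalase, peroxiredoxins and glutathione peroxidases then break the peroxide down, peroxiredoxins mostly with electrons from thioredoxin and glutathione peroxidases with electrons from glutathione. In airway epithelium these enzymes meet oxidants that are inhaled as well as those made by the cells, and the comparisons below ask whether their mRNAs changed in amount after formaldehyde and whether they were over- or under-represented among the RNAs that the 8-oxoG antibody recovered.

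Since 8-oxoG arises from guanine, the first 60 coding bases of 4 leading isoforms are shown with each guanine in capitals. The leading isoform of a gene is the annotated transcript with the most expected counts over the 8 libraries. PRDX5 and GPX4 are shown because they were among the 3 members with the highest pull-down values, GPX1 because its mRNA is also rich in guanine but its pull-down values were not high, and PRDX3 because its mRNA had the lowest guanine share of the 10. The sequences are from GENCODE 44 on GRCh38, the assembly the authors used, and run 5′ to 3′ on the coding strand.
PRDX5: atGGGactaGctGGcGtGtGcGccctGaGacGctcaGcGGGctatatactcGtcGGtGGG
GPX4: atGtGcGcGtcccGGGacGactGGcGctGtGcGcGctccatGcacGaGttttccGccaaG
GPX1: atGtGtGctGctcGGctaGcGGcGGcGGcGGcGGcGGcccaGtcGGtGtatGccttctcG
PRDX3: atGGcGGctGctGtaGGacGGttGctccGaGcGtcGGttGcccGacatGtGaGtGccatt

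These bases lie in coding exons at chr11:64318216-64318275 (plus strand) for PRDX5, chr19:1104125-1105242 (plus strand, spliced) for GPX4, chr3:49358219-49358278 (minus strand) for GPX1 and chr10:119177130-119178790 (minus strand, spliced) for PRDX3. Guanine made up 23 of the 60 bases in PRDX5, 20 in GPX4, 25 in GPX1 and 22 in PRDX3. Over the whole coding sequence its share was 35.0% in PRDX5, 29.8% in GPX4, 32.3% in GPX1 and 24.1% in PRDX3. The first 60 bases therefore do not stand for the whole mRNA. Over the whole leading isoform the guanine share was 34.4% in PRDX5, higher than in 98.8% of the 17934 tested genes with a sequence. These shares are of the GENCODE 44 sequence, which has the same length as the isoform counted by the authors in 2 of the 10 members (in GPX1 899 against 1151 bases). It was 31.1% in GPX1, 30.0% in GPX4, 28.5% in PRDX2, 25.6% in SOD1, 25.2% in PRDX1, 23.0% in SOD2, 22.5% in CAT, 21.7% in PRDX6 and 20.2% in PRDX3. The members therefore ran from PRDX3, above only 12.8% of those genes, to PRDX5, above 98.8% of them.

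Both glutathione peroxidases are selenoproteins, in which a UGA codon is read as selenocysteine instead of a stop. The codon is shown in capitals, as TGA, within 33 coding bases of each leading isoform.
GPX1: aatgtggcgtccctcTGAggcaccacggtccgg
GPX4: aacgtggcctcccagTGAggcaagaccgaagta

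The GPX1 window is at chr3:49358117-49358149 on the minus strand, with the codon at 49358132-49358134 encoding residue 49 of the annotated protein. The GPX4 window is at chr19:1105388-1105420 on the plus strand, with the codon at 1105403-1105405 encoding residue 46 of the protein of that isoform. Both codons lie in coding exons.

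The input libraries held 26152651 to 45144392 expected counts and the pull-down libraries 16883500 to 23658012, of which the 10 members together took 0.188% to 0.234%. Each member had between 900 (CAT in an FA_IP library) and 23600 (PRDX1 in a CA_IN library) expected counts per library. The labelled cell type was checked against marker genes. All 9 epithelial markers stood at or above 1 TPM (transcripts scaled to a fixed total after division by length) in every library, with a summed level of 1280 to 1650 TPM in input and 2920 to 3920 TPM in pull-down. Of the 4 mesenchymal markers 2 did so, including VIM, and COL1A2 was under 1 TPM throughout. The mesenchymal sum was also higher in pull-down, at 352 to 486 TPM against 178 to 234 TPM in input. TPM are relative to all RNAs of a library, and the higher marker sums in pull-down were not tested. The 3 endothelial markers, the 3 ciliated or secretory airway markers and 3 of the 4 leukocyte markers were under 1 TPM in every library. The other leukocyte marker was CD68, with at most 379 expected counts, and the 4 markers together summed to no more than 3.84 TPM.

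PRDX1 had the highest baseline level of the 10 mRNAs. Levels are given as TPM in the 2 CA_IN libraries, and short RNAs under 300 bases took 49.0% and 49.1% of all TPM there. PRDX1 stood at 246 and 239 TPM, rank 136 among 13845 tested protein-coding genes, and was 2.15 times the next member, SOD1, at 113 and 112 TPM. PRDX6 followed at 94.4 and 90.5 TPM, PRDX5 at 80.5 and 74.9 TPM, and GPX1 at 77.0 and 73.5 TPM. PRDX5 and GPX1 overlapped between their libraries and so could not be ordered. All other neighbours in the order were separated in both libraries, although by as little as 1.10-fold between GPX4 and PRDX2. GPX4 stood at 58.8 and 62.0 TPM, PRDX2 at 56.6 and 52.7 TPM, PRDX3 at 46.6 and 49.6 TPM and SOD2 at 23.3 and 28.2 TPM. CAT was the lowest at 8.05 and 8.92 TPM, rank 3447, a mean 3.03 times below that of SOD2. Within the superoxide dismutases, the cytosolic copper-zinc enzyme SOD1 thus had a higher mRNA level than the mitochondrial manganese enzyme SOD2 in both libraries. Without the correction for length, as CPM (counts scaled to a fixed library total), 3 of the 10 members kept their place.

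**Figure D1:**
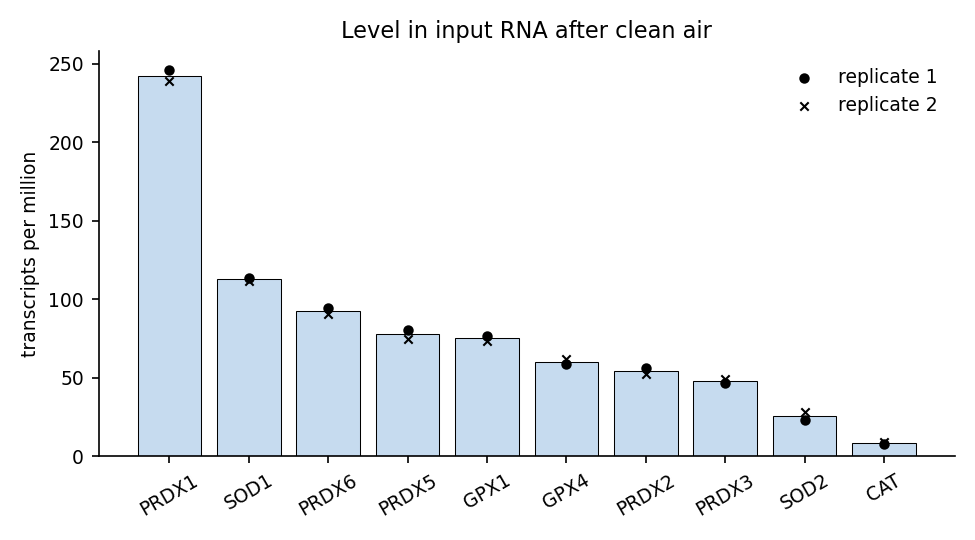
Level of each mRNA in input RNA after clean air, in TPM (linear axis from 0). Bars are means of 2 libraries and symbols are the libraries. PRDX1, at 246 and 239 TPM, is followed by SOD1, at 113 and 112 TPM, and CAT is the lowest.

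For comparisons between libraries the gene sums of expected counts were scaled to TMM-normalized CPM, which are comparable across libraries but not between genes of different length. The member values are given by function below, and the tests follow.

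PRDX1 and PRDX2 are the abundant cytosolic peroxiredoxins, which form a disulfide on peroxide and are recycled by thioredoxin. PRDX1 (ENSG00000117450, chr1:45510914-45542732) was at 542 and 545 CPM in CA_IN, 564 and 568 CPM in FA_IN, 489 and 532 CPM in CA_IP, and 504 and 550.0 CPM in FA_IP. Its pull-down libraries lay below the input libraries of the same treatment, by little, in both treatments. PRDX2 (ENSG00000167815, chr19:12796820-12801800) was at 119.7 and 115 CPM in CA_IN, 128 and 127 CPM in FA_IN, 114 and 131 CPM in CA_IP, and 111 and 136 CPM in FA_IP. The pull-down libraries of PRDX2 lay on either side of the input values in both treatments.

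PRDX3 is the mitochondrial peroxiredoxin, and PRDX5 is found in mitochondria, peroxisomes and the cytosol. PRDX3 (ENSG00000165672, chr10:119167720-119178812) was at 177 and 194 CPM in CA_IN, 187 and 201 CPM in FA_IN, 172 and 188 CPM in CA_IP, and 190.5 and 197 CPM in FA_IP. Input and pull-down overlapped in each treatment, as did the 2 input groups. PRDX5 (ENSG00000126432, chr11:64318121-64321811) was at 142 and 138.5 CPM in CA_IN and 158 and 149.9 CPM in FA_IN. In the pull-down it was at 177 and 193 CPM in clean air and 186 and 204 CPM after formaldehyde. The 4 pull-down libraries were the 4 highest values of PRDX5.

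PRDX6 works with glutathione rather than thioredoxin and also has phospholipase activity. PRDX6 (ENSG00000117592, chr1:173477330-173488815) was at 294 and 308 CPM in CA_IN, 311 and 327 CPM in FA_IN, 298.5 and 317 CPM in CA_IP, and 312 and 327 CPM in FA_IP. It was the steadiest member, with a coefficient of variation over the 8 libraries of 3.8% and a ratio of highest to lowest value of 1.11.

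GPX1 reduces hydrogen peroxide in the cytosol and mitochondria, and GPX4 reduces lipid hydroperoxides in membranes and restrains ferroptosis. GPX1 (ENSG00000233276, chr3:49357174-49358605) was at 172.5 and 169.6 CPM in CA_IN, 196 and 189 CPM in FA_IN, 142 and 179 CPM in CA_IP, and 159 and 177 CPM in FA_IP. Its CA_IP libraries lay on either side of the CA_IN values, while both FA_IP libraries lay below both FA_IN libraries. GPX4 (ENSG00000167468, chr19:1103982-1106791) was at 94.4 and 103 CPM in CA_IN, 109 and 112 CPM in FA_IN, 110.3 and 137 CPM in CA_IP, and 117 and 146 CPM in FA_IP. As with PRDX5, the pull-down libraries of GPX4 lay above the input libraries in each treatment, but they differed more from each other.

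SOD1 is the cytosolic copper-zinc dismutase, SOD2 the manganese dismutase of mitochondria, and CAT the heme enzyme of peroxisomes. SOD1 (ENSG00000142168, chr21:31659666-31668931) was at 235 and 240.0 CPM in CA_IN, 249 and 257 CPM in FA_IN, 281 and 313.5 CPM in CA_IP, and 285 and 322 CPM in FA_IP. Its 4 pull-down libraries were all above its 4 input libraries. SOD2 (ENSG00000112096 in the tables, chr6:159669069-159762529 in GENCODE 44 under another ID) was at 128 and 172 CPM in CA_IN, 131 and 167 CPM in FA_IN, 133 and 159 CPM in CA_IP, and 122.5 and 157.5 CPM in FA_IP. In SOD2 the replicates of each group stood further apart than the group means. CAT (ENSG00000121691, chr11:34438934-34472060) was at 44.3 and 51.2 CPM in CA_IN, 48.4 and 55.9 CPM in FA_IN, 46.6 and 54.4 CPM in CA_IP, and 49.8 and 58.8 CPM in FA_IP. All groups of CAT overlapped.

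**Figure D2:**
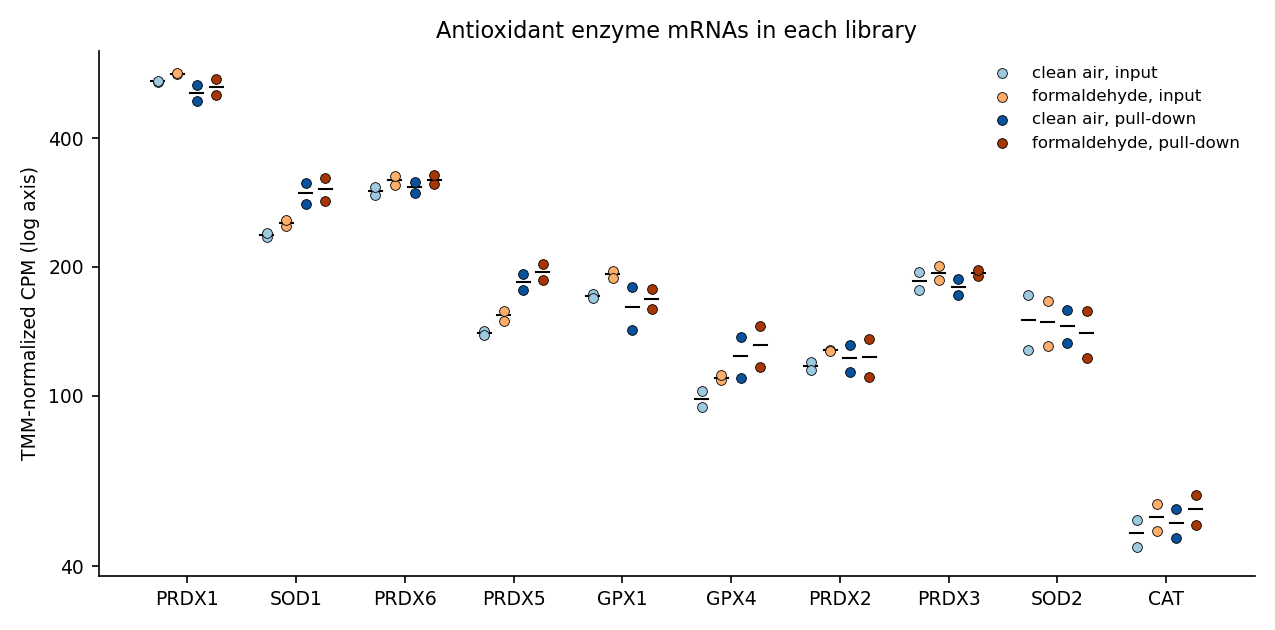
TMM-normalized CPM (log axis) of the 10 mRNAs in the 8 libraries, in the order of their baseline level. Each point is a library and each short line the mean of a group of 2. PRDX5, SOD1 and GPX4 stand higher in pull-down than in input within each treatment.

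No member was called between FA_IN and CA_IN. edgeR's quasi-likelihood test with Benjamini-Hochberg adjustment over all 18242 genes found 0 of the 10 at an adjusted p under 0.05, 0 at an unadjusted p under 0.05, and DESeq2 on the same libraries also called 0. Of all genes tested, 0.00548% (1 gene) were called. The log2 fold changes of formaldehyde over clean air ran from -0.01 in SOD2 to 0.17 in GPX1, with SE of 0.08 to 0.18 and a smallest unadjusted p of 0.148 (PRDX5, adjusted p = 0.945). The 95% intervals of the 10 together spanned 0.74-fold to 1.38-fold, so the data leave room for small changes in either direction. Values above 0 were seen in 9 of the 10, with a median of 0.11 against 0.02 over all tested genes, and both FA_IN libraries lay above both CA_IN libraries in 7 members (PRDX1, PRDX2, PRDX5, PRDX6, GPX1, GPX4 and SOD1), as in 18.1% of all tested genes. The members share the same 4 libraries and are not replicates of the exposure. With the number in the file names as a block, 0 members were called here either. For GPX1, with the highest value, the means were 171 ± 2.04 CPM in CA_IN and 192 ± 5.11 CPM in FA_IN (SD, n = 2), and the adjusted p was 0.945. For CAT the interval was 0.88-fold to 1.35-fold.

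Pull-down values were higher than input in both treatments for 3 mRNAs, PRDX5, SOD1 and GPX4. The other 7 stood closer to input, with GPX1 the lowest after formaldehyde. In the edgeR test without a term for the RNA pool, 0 of the 10 were called higher and 0 lower in either treatment. Among all tested genes, 0.148% were called higher and 1.77% lower in clean air, and 0.0329% higher and 1.47% lower after formaldehyde. At an unadjusted p under 0.05 there were 3 members in clean air (PRDX5, SOD1 and GPX4) and 2 after formaldehyde (PRDX5 and SOD1), all higher in the pull-down, and DESeq2 on all 8 libraries called PRDX5 in clean air and no member after formaldehyde. In clean air the log2 fold changes were 0.40 for PRDX5 (95% interval 0.20 to 0.59, adjusted p = 0.0614), a 1.32-fold difference, 0.32 for SOD1 (0.11 to 0.53, adjusted p = 0.155) and 0.33 for GPX4 (0.02 to 0.63, adjusted p = 0.354) in the edgeR test. After formaldehyde they were 0.34 for PRDX5 (0.14 to 0.53, adjusted p = 0.154), a 1.26-fold difference, 0.26 for SOD1 (0.05 to 0.47, adjusted p = 0.364) and 0.25 for GPX4 (-0.05 to 0.56, adjusted p = 0.684). The size of the GPX4 values changed with single libraries, while the values stayed above 0. In clean air the log2 fold change was 0.16 without the second CA_IP library and 0.48 without the first. After formaldehyde it was 0.10 without the second FA_IP library and 0.40 without the first.

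These calls depended on the model. A term for the RNA pool was among the settings that gave calls, and the others are given with the dependence on the processing. Input and pull-down fractions were split from the same RNA pool, and with the pool as a block edgeR called PRDX5, SOD1 and GPX4 higher in both treatments, while no member was called lower. The log2 fold changes of these 3 moved by at most 0.01. In clean air the adjusted p was 0.000233 for PRDX5, 0.00101 for SOD1 and 0.00354 for GPX4. After formaldehyde it was 0.00182 for PRDX5, 0.0091 for SOD1 and 0.036 for GPX4. This model also called far more of all genes: 11.6% of the tested genes were higher and 5.85% lower in clean air, and 5.45% were higher and 4.6% lower after formaldehyde. Against those shares, 3 of 10 members higher is a count of few genes and is given as a description.

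The log2 ratio of pull-down to input in the 4 pools was 0.32, 0.48, 0.23 and 0.44 for PRDX5, with the clean air pools first. For SOD1 it was 0.25, 0.39, 0.20 and 0.32, and for GPX4 0.22, 0.42, 0.10 and 0.38. A common sign was also seen in CAT, at 0.07, 0.09, 0.04 and 0.07, and in PRDX1, at -0.15, -0.03, -0.16 and -0.05. GPX1 was at -0.28, 0.08, -0.30 and -0.09. Pull-down libraries lay above input libraries in both treatments for the same 3 members, as they did for 11.6% of all tested genes.

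The other members stood nearer to their input level than PRDX5, SOD1 and GPX4. In clean air their log2 fold changes ran from -0.09 in PRDX1 and GPX1 to 0.08 in CAT, and after formaldehyde from -0.19 in GPX1 to 0.06 in CAT. PRDX6 was at 0.03 in clean air and 0.00 after formaldehyde, with 95% intervals of 0.90-fold to 1.16-fold and 0.89-fold to 1.13-fold. GPX1 after formaldehyde, at 0.88-fold, had an edgeR adjusted p of 0.747 without the block. With the block its log2 fold change was -0.19 (95% interval -0.35 to -0.03, unadjusted p = 0.0198, adjusted p = 0.128 by edgeR). With library size in place of TMM the median of all genes moved from 0.02 to 0.16 in clean air and from 0.00 to 0.17 after formaldehyde. That setting shifts all genes alike, and on it PRDX5 and SOD1 passed the test in both treatments.

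**Figure D3:**
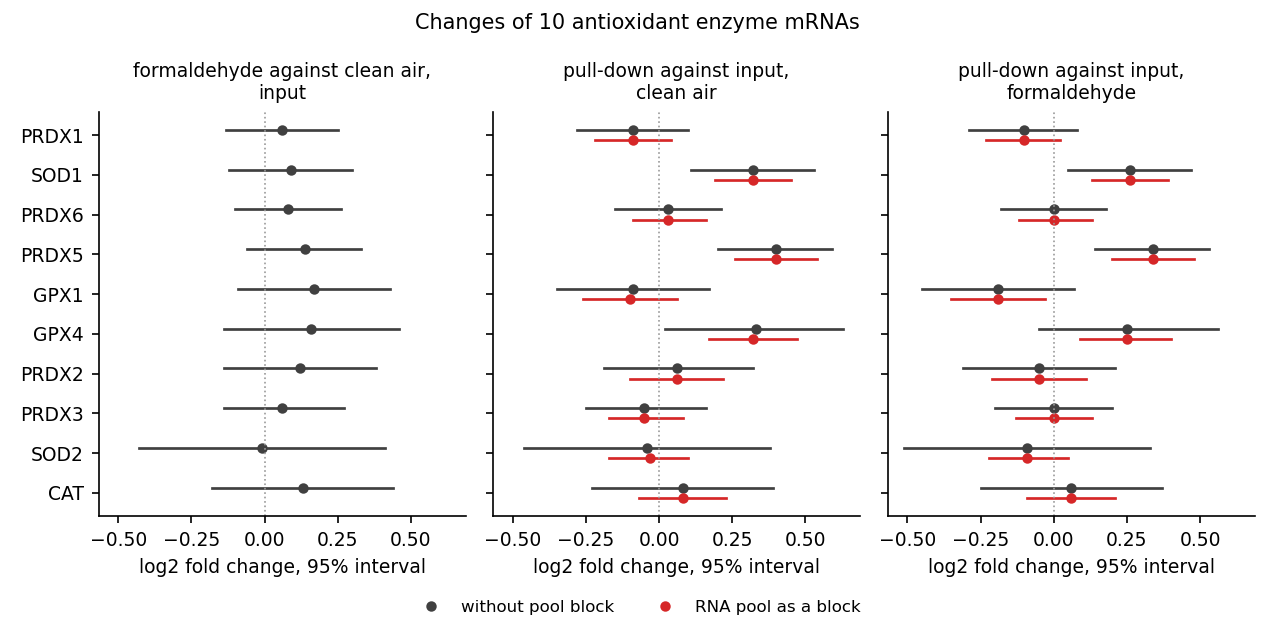
Log2 fold changes of the 10 mRNAs with 95% intervals for formaldehyde against clean air in input and for pull-down against input in each treatment, from edgeR without (dark) and with (red) the RNA pool as a block. The block could not be fitted to the input comparison, in which each pool gave a single library. The points of PRDX5, SOD1 and GPX4 lie to the right of 0 in both pull-down panels. After formaldehyde the GPX4 interval without the block includes 0. In the input panel every interval includes 0.

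Formaldehyde did not detectably change the pull-down of any member. The test of the difference itself, the pull-down effect after formaldehyde minus that in clean air, gave 0 calls among the 10 by edgeR or DESeq2, 0 at an unadjusted p under 0.05 and 0% of all tested genes called. The differences ran from -0.11 in PRDX2 to 0.04 in PRDX3 on the log2 scale, with a smallest unadjusted p of 0.504 and an adjusted p of 1.0. For PRDX5 the difference was -0.06 (95% interval -0.34 to 0.22), for SOD1 -0.06 (-0.35 to 0.24) and for GPX4 -0.08 (-0.51 to 0.35). The differences were below 0 in 9 of the 10, with a median of -0.05 against -0.02 over all tested genes. The 10 intervals together spanned 0.64-fold to 1.46-fold, and 0.79-fold to 1.17-fold with the RNA pool as a block, where 0 members were called.

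Base composition and length of the mRNAs varied together with the pull-down over all genes, and the members were set beside both. When the 17934 genes with a sequence were split into 5 equal classes by the guanine share of the leading isoform, the median log2 fold change of pull-down over input in clean air went from -0.15 in the lowest class to 0.28 in the highest. After formaldehyde it went from -0.11 to 0.18. PRDX5 and GPX4 were in the highest class, with values of 0.40 and 0.33 in clean air that were above its median. GPX1 was in the same class at -0.09, and SOD1 was in the middle class of guanine share, with a median of 0.03, at 0.32. PRDX3, in the lowest class, was at -0.05. In clean air PRDX2, in the next to highest class with a median of 0.15, was at 0.06, and PRDX1, in the middle class, at -0.09. PRDX6, SOD2 and CAT, in the next to lowest class with a median of -0.06, were at 0.03, -0.04 and 0.08. The order of the members by guanine share differed from the order of their pull-down values. The part of guanine share in these values was not tested.

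Mean transcript length was set beside the calls for all tested genes, coding and non-coding. Among tested genes with a mean transcript length under 1000 bases, 10.6% were called lower in clean air and 9.0% after formaldehyde in the edgeR test without the block, with median log2 fold changes of -0.16 and -0.19. Between 1000 and 2000 bases the shares were 1.1% and 0.81%, with medians of 0.09 and 0.07. Above 2000 bases the shares were 0.115% and 0.106%, with medians of 0.01 and -0.00. The means were 808 bases for GPX4, 880 for PRDX5, 975 for SOD1 and 989 for PRDX2, so these 4 members belonged to the class with the lowest medians. Of these, 0 were called lower, a count of too few genes to set against the shares of the class. PRDX1 (1021 bases), GPX1 (1056), PRDX6 (1551) and PRDX3 (1595) were in the middle class, all below its median in each treatment. CAT (2289) and SOD2 (4348) were in the longest, CAT above and SOD2 below its median in each treatment. No test compared the members with other genes of their length.

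**Figure D4:**
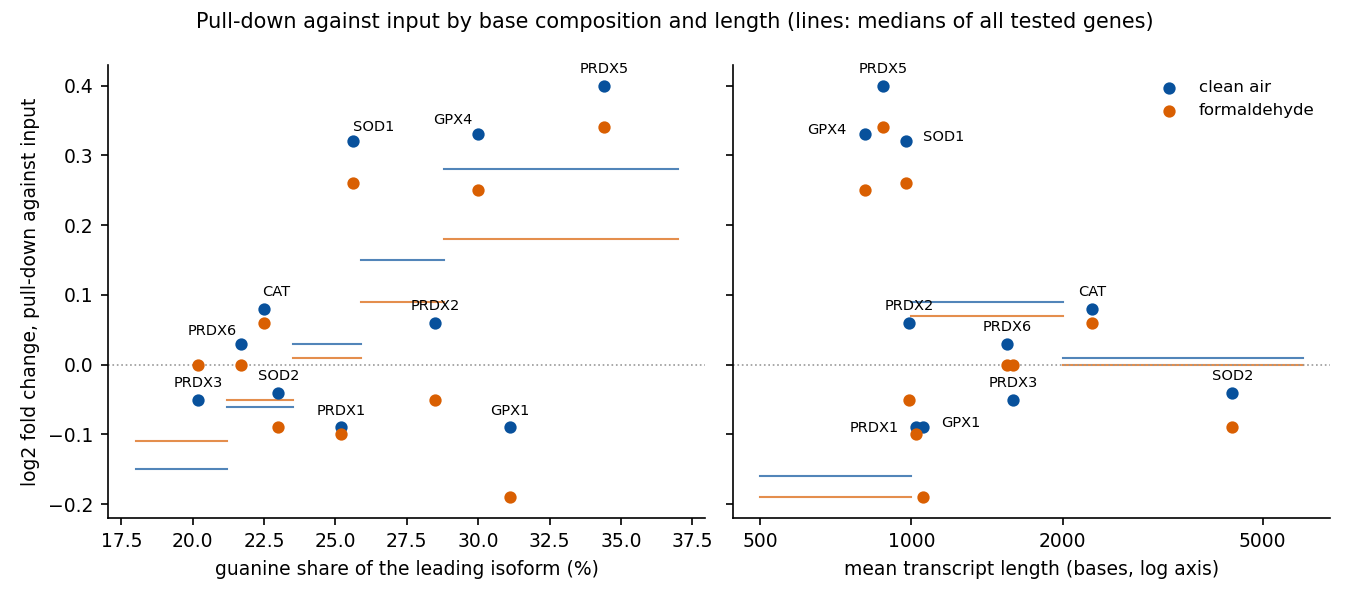
Log2 fold change of pull-down against input (edgeR without the block) for the 10 mRNAs against the guanine share of the leading isoform (left) and the mean transcript length (right, log axis), in clean air and after formaldehyde. Horizontal lines are medians of all tested genes in 5 classes of guanine share and 3 classes of length, cut at the edges of the plot. SOD1, PRDX5, GPX4 and CAT lie above the lines of their class in both panels, and PRDX1 and GPX1 lie below them. PRDX3 and PRDX6 lie above their line on the left and below it on the right, and PRDX2 the reverse. SOD2 lies below its line on the right.

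Most members were carried by a dominant annotated isoform. The leading isoform held 99.3 ± 0.183% (SD, n = 8 libraries) of the gene's expected counts in PRDX3 (ENST00000298510), 99.1 ± 0.193% in PRDX1 (ENST00000319248), 98.4 ± 0.388% in SOD1 (ENST00000270142), 96.8 ± 0.738% in PRDX2 (ENST00000301522) and 96.2 ± 0.569% in PRDX5 (ENST00000265462). These are protein-coding transcripts. In GPX4 it was ENST00000611653 with 82.1 ± 1.29%, in PRDX6 ENST00000340385 with 77.6 ± 2.21%, and in GPX1 ENST00000419783 with 63.5 ± 1.95%, the lowest share of the 10. The second GPX1 isoform, ENST00000620890, held 32.1 ± 2.18% and is absent from GENCODE 44.

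The leading SOD2 isoform, ENST00000546260, of 4302 bases and annotated as a target of nonsense-mediated decay, held 67.6 ± 2.36%, and the protein-coding ENST00000367055, of 990 bases, held 15.1 ± 1.37%. The tool divides reads that several isoforms share, so these shares are estimates. In CAT the leading ENST00000241052 held 74.4 ± 18.1%, from 49.7% to 99.5% in single libraries, and nearly all other CAT counts were assigned to ENST00000648322, which is also absent from GENCODE 44. The CAT gene sum varied by 9.57% (coefficient of variation over the same 8 libraries).

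At the level of isoforms, 44 of the 65 annotated for the members were tested among 67873 transcripts, and 0 were called by edgeR in any comparison. At an unadjusted p under 0.05 there were 1 in input, 3 in clean air pull-down, 6 in formaldehyde pull-down and 1 in the difference between treatments. Of all transcripts, 0% were called in input, 0.242% in clean air pull-down, 0.144% in formaldehyde pull-down and 0% in the difference. The leading isoform of PRDX5 was at log2 fold changes of 0.37 ± 0.09 (SE) in clean air and 0.34 ± 0.09 after formaldehyde, with adjusted p of 0.354 and 0.518 (edgeR). That of SOD1 was at 0.29 ± 0.10 and 0.26 ± 0.10, with adjusted p of 0.63 and 0.819 (edgeR). These isoforms hold nearly all counts of their genes.

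Processed pseudogenes and overlapping RNAs could take or give reads. The highest expected count of any annotated pseudogene of a member was 31.0 in a library (PRDX3P1), followed by 17 (PRDX2P3) and 13 (PRDX3P2). The divergent or overlapping RNAs PRDX6-AS1, SOD1-DT and SOD2-OT1 had at most 11, 17 and 10 counts. Reads were counted without a strand setting, so that reads of overlapping antisense RNAs could not be told apart from those of the members.

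Among 15 thioredoxin and glutaredoxin partners, all tested, 2 fell in the pull-down in both treatments and 0 rose, by edgeR without the block. Of all tested genes, 1.77% were called lower in clean air and 1.47% after formaldehyde, and 0.148% and 0.0329% higher. TXN encodes thioredoxin, which recycles most peroxiredoxins, and was at 431.5 and 413.5 CPM in CA_IN, 473 and 449 CPM in FA_IN, 206 and 208 CPM in CA_IP, and 248 and 239 CPM in FA_IP. It fell by 1.03 on the log2 scale in clean air (SE 0.08, adjusted p = 0.000224) and by 0.92 after formaldehyde (SE 0.08, adjusted p = 0.000491) by edgeR. GLRX encodes glutaredoxin, which removes glutathione from protein cysteines, and went from 50.1 and 50.7 CPM in CA_IN to 24.0 and 28.5 CPM in CA_IP, and from 54.0 and 53.7 CPM in FA_IN to 30.8 and 31.1 CPM in FA_IP. Its edgeR log2 fold changes were -0.94 (SE 0.11, adjusted p = 0.00214) and -0.80 (SE 0.11, adjusted p = 0.00662). When any of the 4 formaldehyde libraries was left out, the adjusted p of GLRX after formaldehyde lay between 0.0745 and 0.097. The leading isoforms of TXN and GLRX had guanine shares of 19.3% and 20.8%, and the mean lengths were 868 and 1296 bases. TXNRD1, the cytosolic thioredoxin reductase, was the most abundant other partner and stayed at 400.3 to 475 CPM in the 8 libraries. The median of the 15 was 0.06 in clean air and 0.07 after formaldehyde, against 0.02 and 0.00 over all genes. With the block 2 were higher and 3 lower in clean air, beside 11.6% and 5.85% of all tested genes. After formaldehyde 2 were higher and 2 lower, beside 5.45% and 4.6%. These are counts of few genes and are given as a description.

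Of the 8 other family members 5 were tested, and 0 passed in any comparison without the block. The most abundant was PRDX4, the peroxiredoxin of the endoplasmic reticulum, at 100.2 and 99.6 CPM in CA_IN, 110.4 and 104.9 CPM in FA_IN, 70.8 and 81.2 CPM in CA_IP, and 83.8 and 80.4 CPM in FA_IP. Its log2 fold change of pull-down over input was -0.39 in each treatment (adjusted p = 0.0817 in clean air and 0.117 after formaldehyde by edgeR). With the RNA pool as a block PRDX4 passed as lower in both (adjusted p = 0.000306 and 0.000594), opposite in sign to PRDX5. That model called 5.85% of all tested genes lower in clean air and 4.6% after formaldehyde. GPX3, the secreted glutathione peroxidase and next in abundance, stood at 31.0 to 42.1 CPM. GPX5, GPX6 and SOD3 did not pass the filter on low counts.

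Genes for oxidant sources and copper delivery, and those for selenoprotein synthesis, gave 0 calls without the block. Of the 9 former genes 3 were tested, and NOX1, NOX3, NOX4, NOX5, DUOX2 and CYBB had too few counts. CYBA, a subunit of NADPH oxidases, was at 19.6 to 28.0 CPM, and CCS, the copper chaperone of SOD1, at 10.9 to 15.1 CPM. CCS was at a log2 fold change of 0.30 in clean air pull-down (adjusted p = 0.449, and 0.0437 with the block, the only call of this list there) and 0.14 after formaldehyde (0.921, and 0.465 with the block). With the block, 11.6% of all tested genes were called higher in clean air. All 7 genes of selenoprotein synthesis were tested, and 0 passed with or without the block. SECISBP2, which binds the selenocysteine insertion element of mRNAs such as GPX1 and GPX4, was at 68.2 to 83.0 CPM, and SEPHS1 at 62.4 to 72.6 CPM. Without the block, 0 genes of these 2 lists had an unadjusted p under 0.05 in any comparison. In input, 0 genes of the 4 lists were called and 0 had an unadjusted p under 0.05.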

How the data were processed

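Per the labels and the methods, the authors trimmed reads with cutadapt, aligned them with STAR 2.6.0a to GRCh38 with Ensembl 94 annotation, and deposited an RSEM 1.2.25 expected count for each transcript and library, not normalized and counted without a strand setting. The deposited DESeq2 tables hold the authors' comparisons and were not used. Expected counts were summed by gene and rounded, and a gene was tested where 2 or more libraries reached 10, with edgeR 4.0.16 (TMM, quasi-likelihood, prior count 0.125, R 4.3.3), all 8 libraries in the fit, and Benjamini-Hochberg adjusted p under 0.05 as the call. DESeq2 1.42.0 was an alternative. TPM was computed from expected counts and effective lengths. Of the gene IDs, 58207 matched GENCODE 44 by ID and 37, SOD2 among them, through transcripts. The labels do not number the replicates. File names do, and the methods state that input and pull-down were split from the same RNA. The pool block rests on that statement and on the file numbers. Same-numbered libraries deviated together within a treatment (r over genes 0.38 in clean air, 0.246 in formaldehyde) and also across treatments (0.203 to 0.283), so the correlation alone does not single out the pool, and the number as a block was an alternative in all comparisons. The labels name 2 antibody clones. The edgeR test without a block was also tried on simulated counts, drawn for each library independently. These had no shared pool or replicate effect, so the trial does not bear on the calls with a block. Members, lists and the rule for named genes (all members, leading isoforms, list genes that passed the test, and the 2 most abundant of each list) were chosen with earlier results of these data known. The totals above set the depth, and with 2 libraries a group the precision rests on the spread shared across groups.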

Additional observations from a re-analysis of the deposited data

How the results depend on the processing

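In input and in the difference between treatments, 0 members were called under each alternative run, and 0 were called lower in the pull-down. The count of members called higher was 0 in the edgeR test without a block and changed with the model. In clean air it was 1 with DESeq2 on all 8 libraries (PRDX5), 2 with library size in place of TMM, and 3 with a replicate block (the number in the file names as a term) or with the RNA pool as a block. After formaldehyde it was 2 with library size, 2 with the replicate block (PRDX5 and SOD1) and 3 with the RNA pool as a block. Libraries were left out only in the edgeR test without a block, where every count was 0 to 0 with each library removed. The order of baseline levels kept 3 of its 10 places as CPM, a scale that does not divide by length.

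Values near 0 changed sign, none of them past the test. Library size shifts all genes alike, by about as much as these values. With it the clean air log2 fold changes of pull-down over input became 0.06 for PRDX1, 0.10 for PRDX3, 0.06 for GPX1 and 0.11 for SOD2. After formaldehyde they became 0.07 for PRDX1, 0.12 for PRDX2, 0.17 for PRDX3 and 0.08 for SOD2, and the difference between treatments became 0.01 for PRDX1. With TMM on protein-coding genes PRDX6 was at -0.01 in both treatments, and the differences were 0.02 for PRDX1, 0.0037 for PRDX6 and 0.01 for CAT. Without a filter PRDX6 was at -0.0029 in clean air and -0.01 after formaldehyde, and the difference for PRDX1 was 0.01. With DESeq2 on all 8 libraries PRDX6 after formaldehyde was at -0.0047.

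When libraries were left out one at a time, the input log2 fold changes that turned sign ranged from -0.02 to 0.13 for PRDX3, -0.23 to 0.21 for SOD2 and -0.0025 to 0.23 for CAT. In clean air pull-down they ranged from -0.04 to 0.16 for PRDX2, -0.11 to 0.02 for PRDX3, -0.01 to 0.07 for PRDX6, -0.26 to 0.07 for GPX1, -0.24 to 0.18 for SOD2 and -0.03 to 0.19 for CAT. After formaldehyde they ranged from -0.18 to 0.09 for PRDX2, -0.05 to 0.07 for PRDX3, -0.02 to 0.06 for PRDX6, -0.26 to 0.12 for SOD2 and -0.05 to 0.18 for CAT. The difference between treatments turned sign in all 10, from -0.07 to 0.05 for PRDX1, -0.23 to 0.03 for PRDX2, -0.02 to 0.14 for PRDX3, -0.12 to 0.01 for PRDX5, -0.07 to 0.05 for PRDX6, -0.26 to 0.07 for GPX1, -0.23 to 0.09 for GPX4, -0.14 to 0.03 for SOD1, -0.25 to 0.18 for SOD2 and -0.13 to 0.12 for CAT. PRDX5, SOD1 and GPX4 stayed above 0 in both pull-down comparisons under every alternative run. With libraries left out, PRDX5 ranged from 0.34 to 0.46 in clean air and 0.29 to 0.40 after formaldehyde, SOD1 from 0.24 to 0.40 and 0.19 to 0.35, and GPX4 from 0.16 to 0.48 and 0.10 to 0.40.

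The pull-down alternatives for TXN and GLRX and the split by guanine share were added after the data were seen. Groups of 2 libraries limit all comparisons. The common spread that edgeR estimated over all tested genes, a coefficient of variation of 13.8%, is not that of the members. Over the 8 libraries, differences between groups included, theirs ran from 3.8% (PRDX6) to 14.8% (GPX4). Pull-down without antibody was not analysed here, so that values above input are relative to the other RNAs in the library.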

Other observations

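Minor isoforms of 2 members, chosen after their values were seen, gave the lowest unadjusted p among the isoforms tested. ENST00000447184 of PRDX1, a protein-coding isoform, held 22.7 and 34.8 expected counts in CA_IN, 23.6 and 23.1 counts in FA_IN and 7.9 and 7.6 counts in CA_IP, and was listed at 0.0 in both FA_IP libraries (unadjusted p = 0.000637, adjusted p = 0.155 for pull-down against input after formaldehyde by edgeR, and adjusted p = 0.866 for the difference between treatments). ENST00000537657 of SOD2, a short protein-coding isoform of 507 bases, held 87.7 and 73.9 counts in CA_IN and 23.0 and 44.8 counts in FA_IN. In the pull-down it held 91.7 and 74.5 counts in clean air and 50.0 and 97.1 counts after formaldehyde. Its input log2 fold change after formaldehyde was -0.83 (SE 0.32, adjusted p = 1.0 by edgeR), and its pull-down values were 0.85 (adjusted p = 0.653) in clean air and 1.56 (adjusted p = 0.305) after formaldehyde. The counts of these isoforms are estimates, since the tool divides reads that several isoforms share.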
